A study of Mus musculus with 6 samples.

Results

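Aquaporins are membrane channels for water, and some of them also carry glycerol, urea, ammonia or hydrogen peroxide. The 5 aquaporins described here, Aqp1, Aqp4, Aqp8, Aqp9 and Aqp11, were picked by gene symbol, with Aqp8 to be set against the glycerol channel Aqp9 and the others. They are 5 of the 12 aquaporin rows in the files, and of 23282 rows in all. The difference between treated and control livers was known when they were picked, so their own levels and fold changes are given as a description, without p-values. The other genes were tested.

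In liver, hepatocytes are known to hold Aqp8 in vesicles, at the bile canaliculus and in mitochondria, where it passes water, ammonia and hydrogen peroxide. Aqp9, an aquaglyceroporin of the sinusoidal face of the hepatocyte, is the main door for blood glycerol. Aqp11 is an unorthodox member of the endoplasmic reticulum. Aqp1 is a pure water channel known from red blood cells, endothelium and bile duct cells, and Aqp4 is best known from astrocytes.

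All livers came from male C57BL/6N mice that began a high-fat diet at 8 weeks of age and ate it for 12 weeks. From week 8 of the diet they were given either vehicle or atractylodin, a polyacetylene of Atractylodes rhizomes, at 10 mg/kg by mouth on 5 days a week for 4 weeks. Each group has 3 libraries, numbered 1 to 3, and no animals on ordinary chow were analysed here. The labels do not say whether each library is a separate animal, so errors describe the spread between libraries. RNA was counted with QuantSeq, a 3' end method in which a transcript yields about one fragment whatever its length.

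Vehicle 1 held 1831461 counts and the other 5 libraries 9871762 to 12565393. Levels are in CPM, each count divided by the size of its library and put on one shared scale, with sizes adjusted by TMM for differences in composition. The hepatocyte product albumin (Alb) stood at 54200 ± 1490 CPM (SD, n = 3) with vehicle and 52100 ± 4170 CPM with atractylodin, matching the labelled tissue. Over all genes, 906 of 12505 tested rows passed an adjusted p of 0.05 in edgeR's quasi-likelihood test (7.25%), 490 higher (3.92%) and 416 lower (3.33%).

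The sequence just upstream of Aqp8 is shown with those of Aqp9, because these are the genes the comparison is built on. Each window runs from 250 bases before to 50 bases after an annotated start, 5' to 3' on the gene's strand, from RefSeq on GRCm38.p6. Aqp9 has windows for 2 start sites. Capitals mark CACGTG, an E-box hexamer read by basic helix-loop-helix factors, in Aqp8, and TGTTTTC, a heptamer described as an insulin response element, in the second Aqp9 window.
Aqp8, chr7:123462044-123462343, plus strand: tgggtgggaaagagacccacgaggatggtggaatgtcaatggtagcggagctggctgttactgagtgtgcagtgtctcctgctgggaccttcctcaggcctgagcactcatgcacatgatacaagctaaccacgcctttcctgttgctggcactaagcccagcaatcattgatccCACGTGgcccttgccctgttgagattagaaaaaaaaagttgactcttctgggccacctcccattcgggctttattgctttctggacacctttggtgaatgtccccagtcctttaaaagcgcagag
Aqp9, chr9:71163240-71163539, minus strand: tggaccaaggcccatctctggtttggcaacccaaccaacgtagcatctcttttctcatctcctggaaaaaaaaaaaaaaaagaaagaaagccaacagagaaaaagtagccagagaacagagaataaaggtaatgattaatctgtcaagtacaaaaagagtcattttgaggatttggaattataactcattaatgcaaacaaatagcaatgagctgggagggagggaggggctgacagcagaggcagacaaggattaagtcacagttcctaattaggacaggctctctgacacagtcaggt
Aqp9, chr9:71162584-71162883, minus strand: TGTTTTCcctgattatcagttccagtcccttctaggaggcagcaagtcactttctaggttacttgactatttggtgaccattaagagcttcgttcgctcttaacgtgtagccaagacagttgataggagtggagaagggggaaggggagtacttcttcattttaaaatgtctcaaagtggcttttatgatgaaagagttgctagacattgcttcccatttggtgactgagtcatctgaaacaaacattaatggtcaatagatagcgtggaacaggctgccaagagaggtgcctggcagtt
The E-box of Aqp8 begins 75 bases before the start, and the heptamer of Aqp9 begins 250 bases before its start.

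Of 6 motifs searched on both strands, CACGTG was present in 7.15% of all 32851 windows of 300 bases, TGTTTTC in 7.35%, AGGTCA (a nuclear receptor half-site) in 16.3%, TATAAA in 13.6%, CCAAT in 37.4% and TGATAA (read by GATA factors) in 9.05%. Windows were also available for Aqp1 and Aqp11, 5 windows in all. Among these 5, CACGTG was found in that of Aqp8 alone, AGGTCA in that of Aqp11 and TGTTTTC and TGATAA in the second window of Aqp9, where they do not overlap. The Aqp8 window holds 52.0% G and C, near the median of 52.7% over all windows, against 41.3% and 43.7% for Aqp9, 62.7% for Aqp1 and 68.0% for Aqp11. These are descriptions of the windows and not evidence of binding.

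Aqp8 (GRCm38 chromosome 7, 123462291 to 123468004, plus strand, no overlapping gene in GENCODE M21) differed most between the groups. It stood at 63.0, 71.8 and 61.2 CPM in vehicle 1, 2 and 3, and at 19.6, 11.5 and 12.8 CPM in atractylodin 1, 2 and 3. The groups lay far apart, and the highest treated library, atractylodin 1, was still far below the lowest vehicle library. The edgeR log2 fold change was -2.16 ± 0.17 (SE), which leaves 22.3% of the vehicle level and ranks 19 from the lowest of the 12505 tested rows. As liver is bulk tissue, fewer cells that express the gene and less RNA per cell cannot be told apart.

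The counts behind these levels were 117, 836 and 757 with vehicle and 197, 110 and 153 with atractylodin. Counting alone gives a coefficient of variation of 9.25% at 117 counts and 9.53% at 110, the lowest count of each group, and less at higher counts. Between libraries it was 8.67% with vehicle and 29.9% with atractylodin. Atractylodin 1 stood above the other treated libraries, and vehicle 2 above the other vehicle libraries.

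Aqp1 (chromosome 6, 55336432 to 55348555, plus strand) hardly differed between the groups. Its values were 147, 159 and 144 CPM with vehicle and 153, 158 and 145 CPM with atractylodin. The groups overlapped almost completely, and the log2 fold change was 0.02 ± 0.09 (SE), an estimate that took the other sign, -0.07, when libraries were scaled by total counts and -0.10 in a random thinning to the depth of vehicle 1.

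Aqp4 (chromosome 18, 15389496 to 15410982, minus strand) was a rare transcript. It stood at 6.46, 7.98 and 4.61 CPM with vehicle and 2.79, 2.82 and 3.51 CPM with atractylodin. The groups did not overlap, but the values rest on 12 counts in vehicle 1 and on 27 to 42 counts in the treated libraries. The log2 fold change was -1.05 ± 0.31 (SE), and it shrank to -0.76 ± 0.38 without vehicle 2, the highest library. An unnamed gene, AC133525.2, overlaps Aqp4 on the opposite strand but shares no exon with it.

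Aqp9 (chromosome 9, 71110659 to 71168682, minus strand) was the most abundant aquaporin in every library. It stood at 356, 372 and 400 CPM with vehicle and 330, 356 and 357 CPM with atractylodin. Atractylodin 2 and 3 lay within the vehicle range, vehicle 1 being the lowest of its group. The log2 fold change was -0.12 ± 0.09 (SE), and the spread between libraries was 5.95% with vehicle and 4.43% with atractylodin. The annotated genes Gm47268 and Gm32511 overlap Aqp9 on the opposite strand without sharing an exon.

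Aqp11 (chromosome 7, 97724006 to 97738289, minus strand) stood at 30.7, 35.6 and 28.4 CPM with vehicle and 23.8, 27.9 and 26.6 CPM with atractylodin. The lowest vehicle library, vehicle 3, and the highest treated one, atractylodin 2, all but touched. Its log2 fold change was -0.28 ± 0.14 (SE), and -0.16 ± 0.16 without vehicle 2.

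**Figure D1:**
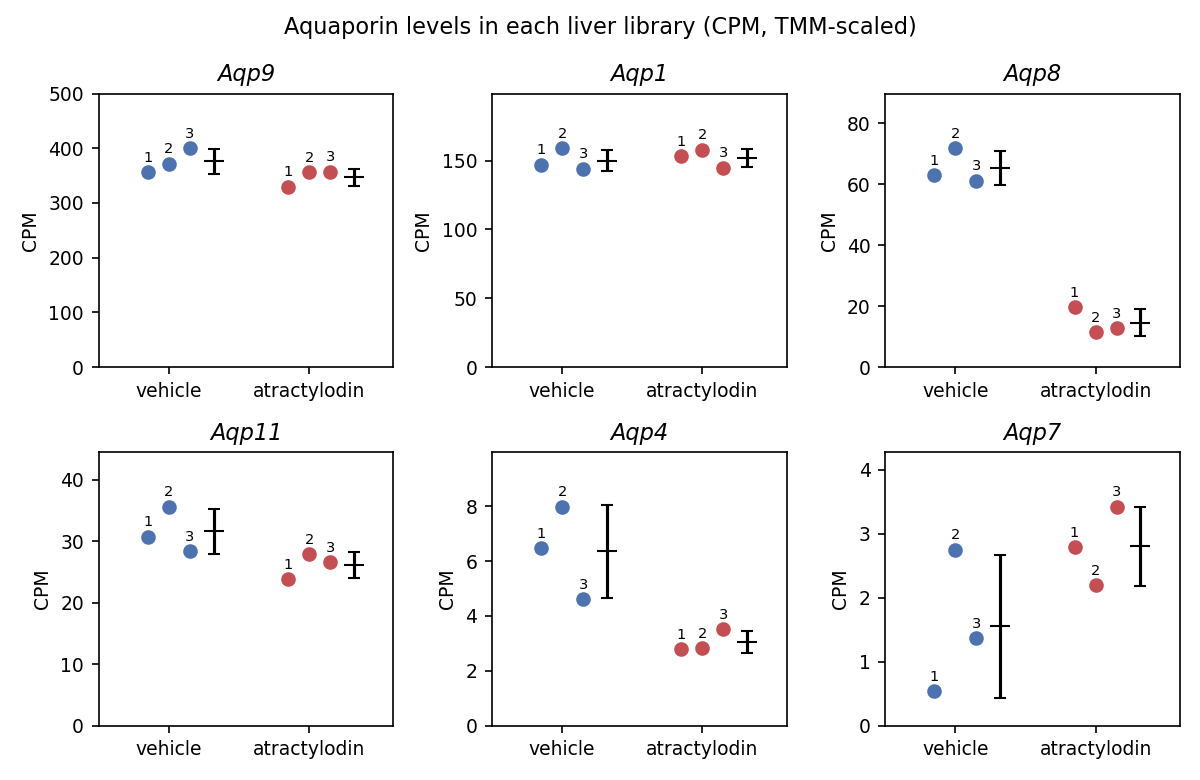
Level of each tested aquaporin in the 6 liver libraries, in CPM on a linear axis from 0, with library numbers beside the points and the group mean and SD (n = 3) as black bars. Aqp8 falls into separate bands (61.2 to 71.8 CPM with vehicle, 11.5 to 19.6 CPM with atractylodin), while Aqp9 and Aqp1 overlap between groups.

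Of the 5 aquaporins, 2 (Aqp4 and Aqp8) were past the threshold that 3.33% of all rows passed in the lower direction. Aqp4 was tested in 15 of the 17 other fits and passed in 6, not in DESeq2 or limma-voom. Among the fits that drop 1 library, Aqp4 passed only without vehicle 3. For 3 of the 5 (with Aqp11) the groups did not overlap and the treated group was lower, which held for 12.6% of all rows, where 26.2% did not overlap in either direction. A log2 fold change of -1 or lower was seen for 2 of the 5 (Aqp4 and Aqp8) and for 2.42% of all rows. Since the members were picked on this contrast, nothing is read from these shares. Their median log2 fold change was -0.28, against 0.00 for all tested rows.

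**Figure D2:**
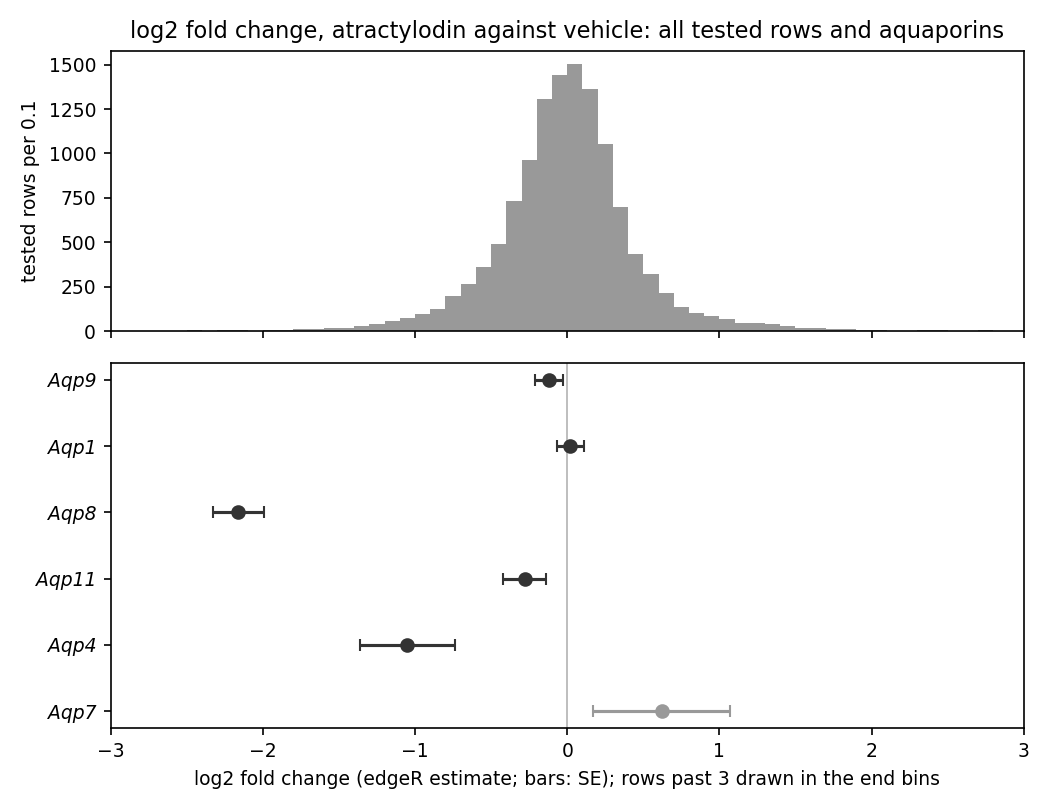
Histogram of the edgeR log2 fold changes of all 12505 tested rows (top) and the estimate with its SE for each tested aquaporin on the same axis (bottom; Aqp7, in grey, was not among the 5 picked). Aqp8 at -2.16 lies in the far left tail, Aqp4 at -1.05 in its shoulder, and Aqp1, Aqp9 and Aqp11 near the centre.

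Of the remaining 7 aquaporin rows, Aqp7 was about as rare as Aqp4 was with atractylodin, and the other 6 had few counts or none. Aqp7, the glycerol channel of fat cells, stood at 0.538, 2.75 and 1.37 CPM with vehicle and 2.79, 2.19 and 3.42 CPM with atractylodin. These groups overlapped, vehicle 1 held a single Aqp7 count, and the log2 fold change was 0.62 ± 0.45 (SE). The lens channel Mip had 29 counts over the 6 libraries, and Aqp2, of the kidney collecting duct, and Aqp3, an aquaglyceroporin of epithelia, had 4 each. No counts were seen for Aqp5, Aqp6 or Aqp12, and 3 counts, the limit that a count of 0 allows, equal 1.61 CPM in vehicle 1 and 0.243 to 0.313 CPM in the other libraries. Such limits cover counting error only.

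With vehicle, the order of the levels was Aqp9, Aqp1, Aqp8, Aqp11, Aqp4 and Aqp7, and the SD ranges of neighbours were apart in each case. The values were not divided by length, since a 3' library yields fragments per transcript, though how well each 3' end is captured may differ between genes. With atractylodin Aqp8, at 14.6 ± 4.38 CPM (SD, n = 3), came after Aqp11, at 26.1 ± 2.08 CPM, and the levels of Aqp4 (3.04 ± 0.406 CPM) and Aqp7 (2.80 ± 0.616 CPM) did not differ beyond their spread. The 5 aquaporins together came to 603, 646 and 638 CPM with vehicle and 529, 556 and 545 CPM with atractylodin, which did not overlap.

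Ratios within a library do not depend on how libraries are scaled. For every 100 Aqp9 counts there were 17.7, 19.3 and 15.3 Aqp8 counts in vehicle 1, 2 and 3, and 5.96, 3.23 and 3.58 in atractylodin 1, 2 and 3. On the log2 scale, with 0.5 added to each count, the ratio averaged -2.52 ± 0.17 (SD, n = 3) with vehicle and -4.60 ± 0.47 with atractylodin, a difference of -2.08, or 4.23-fold. The nearest libraries of the groups, vehicle 3 and atractylodin 1, were 1.36 apart. Atractylodin 1 kept the most Aqp8 relative to Aqp9 among the treated libraries.

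Against Aqp1 and Aqp11 the vehicle libraries were tighter still. The log2 ratio of Aqp8 to Aqp1 was -1.20 ± 0.05 (SD, n = 3) with vehicle and -3.41 ± 0.41 with atractylodin. That of Aqp8 to Aqp11 was 1.05 ± 0.05 and -0.87 ± 0.52, so Aqp8 counts outnumbered Aqp11 counts in each vehicle library and were fewer in each treated one. By contrast the ratio of Aqp11 to Aqp9 was -3.57 ± 0.22 and -3.73 ± 0.06, and that of Aqp1 to Aqp9 -1.32 ± 0.13 and -1.19 ± 0.10, with overlapping groups in both.

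**Figure D3:**
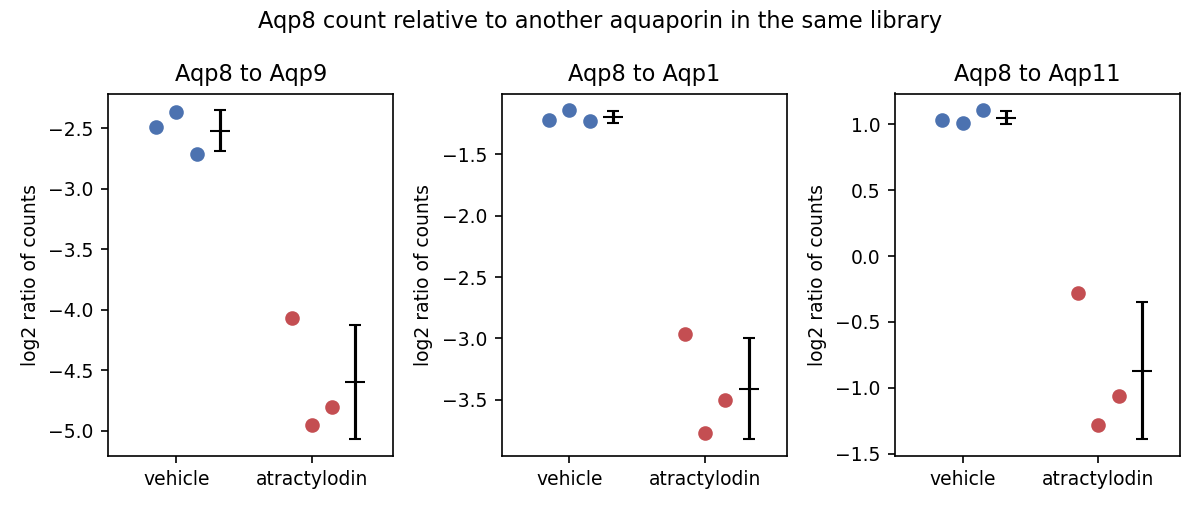
Log2 ratio of the Aqp8 count to the count of Aqp9, Aqp1 and Aqp11 in the same library, one point per library with the group mean and SD (n = 3) in black; the vertical axes differ and do not start at 0. In each panel the 3 vehicle libraries lie together above the 3 atractylodin libraries, of which atractylodin 1 is the highest.

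As a share of the counts of the 5 aquaporins, Aqp8 made up 10.4% (95% Wilson interval 8.78% to 12.4%), 11.1% (10.4% to 11.8%) and 9.59% (8.96% to 10.3%) in vehicle 1, 2 and 3. In atractylodin 1, 2 and 3 it made up 3.71% (3.24% to 4.26%), 2.07% (1.72% to 2.48%) and 2.35% (2.01% to 2.74%). The intervals of vehicle and treated libraries were apart, that of atractylodin 1 lay above those of the other treated libraries, and that of vehicle 2 lay just above that of vehicle 3. These intervals cover counting error within a library and not the spread between libraries, so they are no test of the groups. Aqp9 held 59.7% ± 2.65 (SD, n = 3) with vehicle and 63.9% ± 1.56 with atractylodin.

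**Figure D4:**
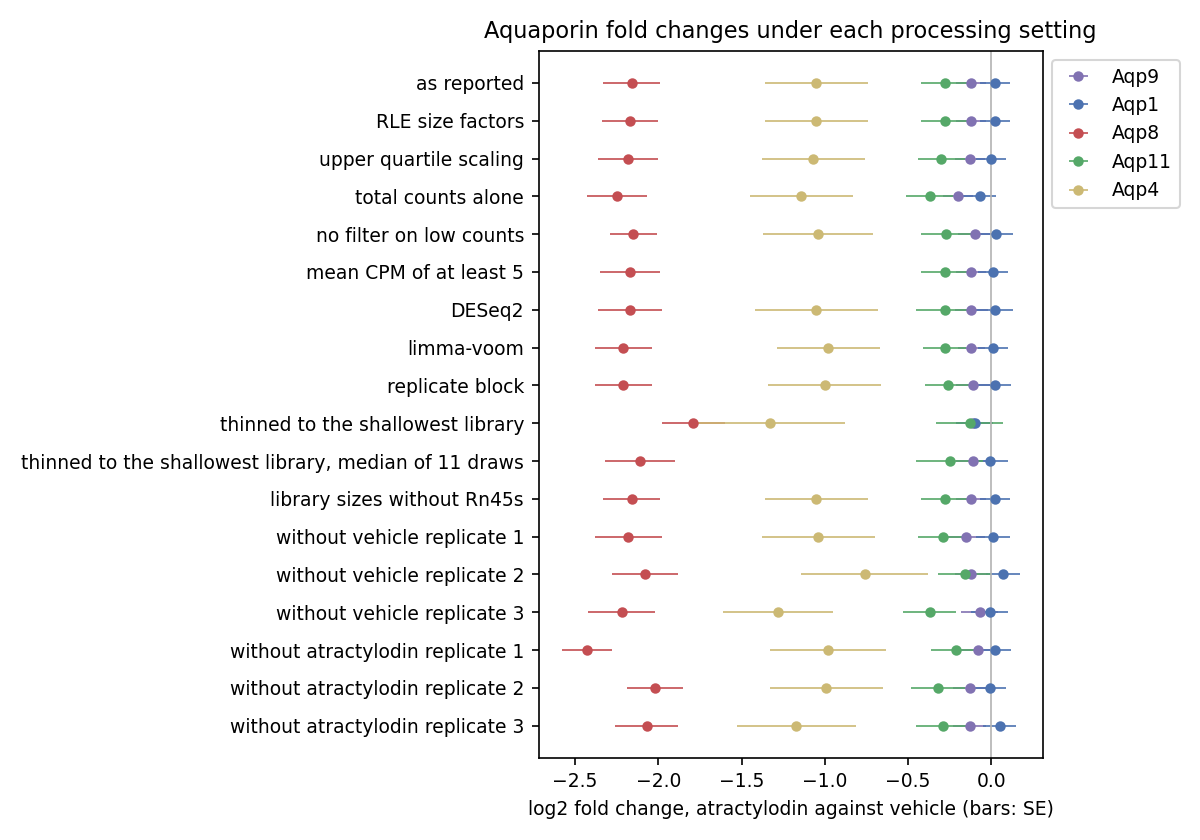
Log2 fold change (points) and SE (bars) of the 5 aquaporins under each processing setting, from the reported fit at the top to the fits that leave out 1 library at the bottom; Aqp4 is missing where too few counts were left to test it. Aqp8 lies between -2.43 (1 library left out) and -1.79 (1 draw thinned to the depth of vehicle 1), below the other 4 in each setting drawn.

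The genes whose levels followed Aqp8 most closely were found by the Euclidean distance between mean-centred profiles of log2 CPM (after adding 2 CPM) over the 6 libraries, among 9658 other rows. The closest was Tsc22d1, a leucine-zipper gene, at a distance of 0.511, where the median row lay at 2.60. It stood at 164, 136 and 166 CPM with vehicle and 40.1, 33.7 and 31.8 CPM with atractylodin, so that atractylodin 1 was again the highest treated library. Next came the interferon-induced Ifit3 (0.717), 9030619P08Rik (0.721), Aldh1b1, a mitochondrial aldehyde dehydrogenase (0.834), and the ubiquitin-like Isg15 (0.940). All 5 were lower with atractylodin, by log2 fold changes of -1.58 to -2.32, as the choice by likeness to Aqp8 requires.

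The 3 rows closest to Aqp9 were Dld, a subunit of mitochondrial dehydrogenase complexes, Pccb, a subunit of propionyl-CoA carboxylase, and 1810058I24Rik, at distances of 0.0698, 0.0795 and 0.0861 where the median row lay at 0.497. Their log2 fold changes were -0.10 ± 0.10, -0.09 ± 0.09 and -0.12 ± 0.09 (SE).

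Aqp9 admits glycerol to the hepatocyte, so a list of genes for glycerol release, phosphorylation and use was read beside it. Not all of them act on glycerol itself, since genes of gluconeogenesis such as Pck1 were included. The listed genes moved in both directions. Of 12 tested, 3 rose and 3 fell, so 6 of 12 passed in edgeR against 7.25% of all rows, with a median log2 fold change of -0.03 against 0.00. Gpd1, the cytosolic glycerol-3-phosphate dehydrogenase, stood at 418, 388 and 416 CPM with vehicle and 246, 190 and 224 CPM with atractylodin. It fell by 0.89 ± 0.10 on the log2 scale (SE, edgeR adjusted p = 5.33e-05). Pck1, the gluconeogenic phosphoenolpyruvate carboxykinase, went from 804, 1370 and 1260 CPM to 3950, 3340 and 3650 CPM (log2 fold change 1.67 ± 0.19, edgeR adjusted p = 0.00247). Neither gene's groups overlapped.

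Tkfc, a kinase of the 3-carbon sugars glyceraldehyde and dihydroxyacetone, averaged 344 ± 45.2 CPM (SD, n = 3) with vehicle and 237 ± 43.5 CPM with atractylodin (edgeR adjusted p = 0.0246). The list's remaining calls are named here because they passed, once the values were known. They were a fall of Gpd2, the mitochondrial glycerol-3-phosphate dehydrogenase (136 to 102 CPM, edgeR adjusted p = 0.0356), and rises of Pnpla2, the lipase that opens triglyceride breakdown (95.7 to 125 CPM, 0.0387), and of Gyk, glycerol kinase (223 to 282 CPM, 0.0413). Gpd1 and Pck1 passed whichever library was dropped. Tkfc and Pnpla2 were each lost in 4 of these 6 repeats, Gpd2 in 5 and Gyk in 6. Dropping any 1 library left 2 or 3 calls in the list, with 1 rise and 1 fall without vehicle 3, and DESeq2 gave 1 rise and 3 falls.

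Around the bile canaliculus, where Aqp8 is known to pass water into bile, 1 of 10 tested transporters fell and none rose in edgeR, where 3.33% of all rows fell. An unadjusted p under 0.05 was found for 4 of the 10 and for 21.5% of all rows. It was Abcb11, the bile salt export pump, at 136, 158 and 165 CPM with vehicle and 95.2, 115 and 128 CPM with atractylodin (log2 fold change -0.45 ± 0.11, edgeR adjusted p = 0.0198). Its groups did not overlap, and its call was lost without vehicle 2 (adjusted p = 0.0743), vehicle 3 (0.128), atractylodin 1 (0.0799) or atractylodin 2 (0.0517). The median of the list was 0.05 on the log2 scale. DESeq2 and limma-voom also called 1 fall.

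On the blood-facing side, none of 8 transporters of organic anions and bile acids passed in edgeR, where 7.25% of all rows did. An unadjusted p under 0.05 was found for 4 of the 8, against 21.5% of all rows, and DESeq2 and limma-voom each called 1 rise. The smallest p was that of the uptake carrier Slco1a1, at 74.3 ± 15.5 CPM (SD, n = 3) with vehicle and 158 ± 45.2 CPM with atractylodin (edgeR adjusted p = 0.0631). It passed when vehicle 1, atractylodin 2 or atractylodin 3 was dropped. Slco1a1 also passed in 6 of the 11 alternatives that keep all libraries, and it was the rise called by DESeq2 and limma-voom.

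Among 18 genes that make or remove hydrogen peroxide, a molecule that Aqp8, Aqp9 and Aqp11 can pass, 1 rose and none fell in edgeR, so that 5.56% passed, near the 7.25% of all rows. An unadjusted p under 0.05 was found for 5 of the 18, against 21.5% of all rows. The rise was of Txnrd1, cytosolic thioredoxin reductase, from 71.1, 75.8 and 77.9 CPM to 116, 109 and 130 CPM (1.57-fold, edgeR adjusted p = 0.000644). It passed whichever library was dropped. The median log2 fold change of the list was 0.01.

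**Figure D5:**
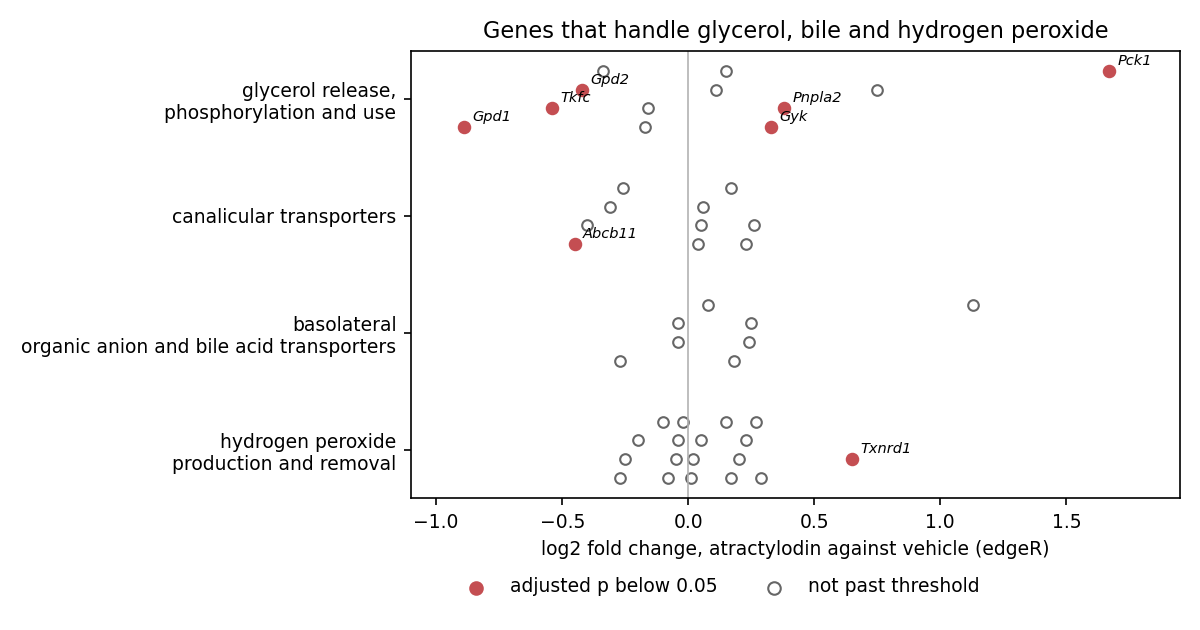
The 4 related gene lists, each point a tested gene at its edgeR log2 fold change, filled where the adjusted p was below 0.05; vertical offsets within a list only separate the points. The glycerol list holds 6 filled points from Gpd1 at -0.89 to Pck1 at 1.67, and the other lists hold 1, 0 and 1.

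Markers of other cells that can carry aquaporins were read beside these levels, and their part in the aquaporin values was not tested. The 14 cholangiocyte markers summed to 93.8 to 117 CPM with vehicle and 48.9 to 55 CPM with atractylodin, lower in the treated group as Aqp8 and Aqp4 were. Of 9 tested, 3 fell, as many as without vehicle 1: Tstd1 (edgeR adjusted p = 0.00156), Spp1 (osteopontin, edgeR adjusted p = 0.00288, named after its value was seen) and the transcription factor Sox9, the most abundant (28.3 ± 7.12 to 14.3 ± 1.97 CPM, SD, n = 3). The share of all tested rows that fell was 3.33%. Of the 9, 6 had an unadjusted p under 0.05, against 21.5% of all rows. The defining duct genes Krt7, Krt19 and Cftr were each at or below 1.12 CPM in every library. Epcam, named once its value was known, was tested and was not lower. It averaged 1.38 ± 1.23 CPM (SD, n = 3) with vehicle and 1.82 ± 0.729 CPM with atractylodin (edgeR adjusted p = 0.969). Aqp1, a known duct gene, had overlapping groups.

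The 15 endothelial markers summed to 541 to 559 CPM with vehicle and 476 to 494 CPM with atractylodin. Among 15 tested in edgeR, 1 rose and 2 fell, where 3.92% of all rows rose and 3.33% fell. Of the 15, 6 had an unadjusted p under 0.05, against 21.5% of all rows. Dropping any 1 library left at most 1 call, and none (with 5 or 6 at an unadjusted p under 0.05) without vehicle 1, vehicle 3 or atractylodin 3. The most abundant by mean CPM, Ptprb, a phosphatase of vessel walls, averaged 101 ± 1.36 and 80.6 ± 3.42 CPM (SD, n = 3, edgeR adjusted p = 0.0437), and the smallest p was that of the scavenger receptor Stab2 (37.3 to 24.6 CPM, edgeR adjusted p = 0.0283). Ptprb was lost whichever library was dropped and did not pass in DESeq2 or limma-voom. Stab2 was lost in 5 of the 6 fits that drop 1 library. The rise was of Lyve1, a hyaluronan receptor of sinusoids and lymph vessels (31.4 to 50.5 CPM, edgeR adjusted p = 0.0414), named once its value was known. The 8 red blood cell markers summed to 1840 to 2340 CPM with vehicle and 1480 to 2880 CPM with atractylodin, overlapping as Aqp1 did. The globin Hba-a1 stood at 1180 ± 167 and 1170 ± 443 CPM. Of 6 red blood cell markers tested, 1 fell, where 3.33% of all rows fell. It was the heme synthesis gene Alas2 (87.2 to 53.9 CPM, edgeR adjusted p = 0.000845).

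Pancreatic acinar cells also express Aqp8. The 18 acinar markers summed to 23.7, 15.6 and 24.3 CPM with vehicle and 41.8, 16.2 and 22.9 CPM with atractylodin, so the sums overlapped between groups. Most of the vehicle sum was Cela1. Without it, a split made after the values were seen, the other 17 summed to 3.77, 3.18 and 1.46 CPM with vehicle and 31.7, 5.85 and 9.35 CPM with atractylodin, higher in each treated library while Aqp8 was lower. Among the treated libraries, atractylodin 1 had both the most acinar transcripts (amylase, Amy2a5, at 7.17 CPM against 0 and 1.59 CPM) and the most Aqp8. Most of these sums are only a few CPM, and whether acinar cells had a part in the Aqp8 values was not tested. Prss1, Ctrc and the acinar aquaporin Aqp12 had no counts in any library. Of 3 markers tested, 1 rose, where 3.92% of all rows rose. It was Cpb1 (edgeR adjusted p = 0.0319), which did not pass when vehicle 3, atractylodin 1 or atractylodin 2 was dropped. Cela1, the most abundant, did not pass (18.4 ± 5.34 and 11.3 ± 1.89 CPM, SD, n = 3, edgeR adjusted p = 0.0826).

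Fat cell markers, 8 genes with Aqp7 itself among them, were read for Aqp7. They summed to 46.6 to 163 CPM with vehicle and 46.9 to 100 CPM with atractylodin. Their defining genes Adipoq and Plin1 had at most 1 count in any library. None of 4 tested markers, Aqp7 included, passed in edgeR, DESeq2 or limma-voom, though Fabp4 passed without vehicle 3. None had an unadjusted p under 0.05 in edgeR. Fabp4, with the smallest p in edgeR, averaged 43.4 CPM in the vehicle libraries and 26 CPM in the treated ones. Cidec, the most abundant by its mean CPM over the 6 libraries, averaged 36.3 and 34.5 CPM. Neutrophil markers, read because neutrophils can carry Aqp9, summed to 7.03 to 9.15 CPM with vehicle and 1.78 to 24.1 CPM with atractylodin. Their part in the Aqp9 level was not tested. None of the 3 tested passed in edgeR, DESeq2 or limma-voom or had an unadjusted p under 0.05, with S100a8, the most abundant, at 2.47 ± 0.431 and 4.21 ± 5.89 CPM (SD, n = 3) and Retnlg, with the smallest p, at 2.27 ± 1.61 and 1.02 ± 1.07 CPM.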

How the data were processed

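Liver RNA (500 ng per library) was made into Lexogen QuantSeq libraries, per the labels' protocols. The authors deposited raw counts per gene symbol. Bowtie2, bedtools and mm10 are named in the submitters' processing notes, and the annotation, strand setting, duplicate handling and treatment of reads with several matches are not given in the sources used here. Each file held 23282 rows, 44 of them repeats of a symbol. The chi-square statistic per degree of freedom between libraries was at least 2.75, so none was treated as a copy.

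Rows were filtered with filterByExpr, scaled by TMM and tested in edgeR 4.0.16 (R 4.3.3) with the robust quasi-likelihood test, adjusted by Benjamini-Hochberg over 12505 rows. Standard errors were derived from the F statistic. The fit was also run on simulated counts in which every gene had the same relative spread beyond counting error. Real genes differ in spread, and no result here rests on that run. DESeq2 1.42.0 and limma 3.58.1 (voom) were alternatives, as were other scalings, filters, thinning, a replicate block and leaving out each library.

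The aquaporins, the 4 related lists and the marker lists were chosen with earlier results of these data known. Named were all aquaporins, up to 3 passing genes of a related list in order of p (the smallest p where none passed), the 5 profiles closest to Aqp8 and 3 closest to Aqp9 among rows averaging 2 or more in edgeR's log2 CPM, by log2 of CPM plus 2, and the most abundant and smallest-p marker of each list. Positions are from GENCODE M21 on GRCm38 (mm10). All 12 aquaporin symbols matched. Promoter windows are from RefSeq, matched by symbol. Figures were drawn with matplotlib 3.10.9.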

Additional observations from a re-analysis of the deposited data

How the results depend on the processing

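Scaling, filter, tool, depth and block gave 11 alternatives, and each library was left out in turn. The aquaporins were picked on this contrast, so their values here are descriptions. Aqp4 ranged from -1.33 to -0.98 over the 9 that tested it and from -1.28 to -0.76 without 1 library. With all libraries thinned once at random to the depth of vehicle 1, as planned, the Aqp8 log2 fold change moved from -2.16 to -1.79, its log2 ratio to Aqp9 from -2.08 to -1.69, and 513 genes were called among fewer tested rows. After that draw was seen, 10 more were added. Over the 11 draws the Aqp8 log2 fold change ran from -2.35 to -1.79 (median -2.11), the ratio from -2.44 to -1.69 (median -2.03) and the genes called from 506 to 594, while 471 genes passed by their median adjusted p. The planned draw gave the smallest Aqp8 difference of the 11. The alternatives without thinning put Aqp8 at -2.25 to -2.15.

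Without 1 library, Aqp8 was at -2.43 to -2.02, Aqp9 at -0.15 to -0.07, their ratio at -2.35 to -1.91, and 467 to 751 genes were called, with 494 without vehicle 1 and 467 without vehicle 3. Calls in the related lists, 8 of 48 genes, were 3 to 6, with 4 without vehicle 2, 3 without vehicle 3 and 4 without atractylodin 1. Scaling by total counts put Aqp9 at -0.20 and the median of all genes at -0.087. It called 312 genes higher and 707 lower, against 490 and 416. The TMM factors that this scaling leaves out were 1.016, 1.049 and 1.023 in vehicle 1, 2 and 3. They were 0.99, 0.9716 and 0.9542 in atractylodin 1, 2 and 3. Why these factors differed between the groups was not tested.

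With the replicate number as a block, 811 genes were called, the Aqp8 log2 fold change was -2.21 ± 0.17 (SE) and the ratio to Aqp9 -2.08 ± 0.29 (SE over 3 pairs), while Aqp4 no longer passed. Deviations of same-numbered libraries correlated at -0.052, -0.106 and 0.051, so the numbers were not taken as pairs. Depth limits vehicle 1 most, where 1 count is 0.538 CPM.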

Other observations

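Zonation genes of hepatocytes, read beside the hepatocyte aquaporins, went both ways at the pericentral end of the lobule. Of 14 pericentral genes 4 rose and 4 fell in edgeR (57.1%, against 7.25% of all rows, median log2 fold change -0.01). Dropping 1 library left 2 calls (1 rise and 1 fall, without vehicle 3) to 6 (without atractylodin 1). Thinning once to the depth of vehicle 1 left 4 rises and no fall, and by the median adjusted p of 11 draws 3 rose and 2 fell. Lect2, a secreted chemotactic factor, had the smallest p, at 170 ± 15.9 CPM (SD, n = 3) with vehicle and 113 ± 15.1 CPM with atractylodin (edgeR adjusted p = 0.00257). Cyp2e1, the most abundant, stood at 5510 ± 255 and 6560 ± 696 CPM and did not pass (edgeR adjusted p = 0.154). The largest changes of the list were rises, named once their values were known. Cyp2c29 averaged 569 CPM with vehicle and 2260 CPM with atractylodin (edgeR adjusted p = 0.0483), and Cyp2a5 365 and 1330 CPM (edgeR adjusted p = 0.0158). Of 13 periportal genes 1 rose, Pck1, and 1 fell, Hal, the histidine-degrading lyase (129 ± 9.86 to 75.4 ± 14.7 CPM, SD, n = 3, edgeR adjusted p = 0.00278, named after its value was seen), with a median of 0.06 and the same counts whichever library was dropped.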
